A study of Mus musculus with 18 samples.

Results

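The genes described here are 36 genes of Kupffer cells and other macrophages, chosen by symbol from a list that holds resident Kupffer cell identity genes (8), general macrophage genes (8), the chains of complement C1q (3), lipid-associated macrophage genes (4), Fc receptors and their signalling adaptors (4), genes of the lysosome and phagosome (6) and monocyte receptors (3). All 36 were found among the 58126 genes of the table, and 33 were among the 13872 genes that passed a filter on low values and were tested. RNA was sequenced from whole liver tissue of C57BL/6 mice in 18 libraries, to compare mice in which Ftcd was deleted in the liver (LKO) with wild-type (WT) littermates, with and without the liver carcinogen diethylnitrosamine (DEN). Ftcd encodes an enzyme of histidine and folate metabolism.

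The 5 groups were untreated WT liver (3 libraries) and untreated LKO liver (3), both taken at an age of 12 months, nontumour liver of WT mice given DEN (6), nontumour liver of LKO mice given DEN (3), and tumours of LKO mice given DEN (3). Mice given DEN received 20 mg/kg into the peritoneum at postnatal day 14 and livers were taken 12 months later. All mice ate regular chow. The labels do not name the driver of the deletion, do not say whether libraries of a group come from separate animals, and do not tie a tumour to a nontumour library of the same mouse. The p-values below therefore measure only the spread between these libraries, which may be technical. The values are TPM (transcripts per 1000000 transcripts), a level per transcript length and per library total, so the sequencing depth behind each value is unknown and the 36 genes can be compared with each other on the TPM scale.

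Kupffer cells are the macrophages that live in the sinusoids of the liver, where they clear particles, bacteria, lipoproteins and aged red cells from the blood. Their identity genes depend on signals from neighbouring endothelial cells, stellate cells and hepatocytes, and on the transcription factors PU.1 (Spi1) and liver X receptor alpha (Nr1h3). When resident cells are lost, monocytes from the blood enter the liver and become macrophages that share the general macrophage genes but at first lack the identity genes, and in fatty, fibrotic or tumour-bearing liver some of them take on the lipid-associated programme marked by Trem2 and Gpnmb.

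RefSeq promoter windows (build GRCm38.p6, the 250 bases before the start) were at hand for 31 of the 36 genes. The letters GAGGAA, a core sequence bound by PU.1 and other Ets factors, were searched on both strands. They stood in 15 of the 31 windows (48.4%), against 7639 of all 32851 windows (23.3%), while the letters CACGTG, an E-box searched on both strands, stood in 0 of the 31 and in 6.02% of all windows. Each member's window is at the start nearest its annotated 5′ end, whereas the 32851 windows hold every listed start of a gene. The shares thus come from sets built in different ways. The 4 windows below belong to a resident scavenger receptor, a resident complement receptor and a pair of C1q chains. They were chosen from the windows that hold the letters, whereas the windows of Clec4f, Timd4, Cd163, Folr2 and Spic, 5 of the 8 resident genes, hold none. In the sequences GAGGAA or its reverse complement TTCCTC is in capitals. A match is a description of these letters and not a shown binding site. The Marco window is chr1:120505025-120505274, the Vsig4 window chrX:96293439-96293688, the C1qb window chr4:136886201-136886450 and the C1qc window chr4:136892915-136893164, all on the minus strand and printed 5′ to 3′.
Marco: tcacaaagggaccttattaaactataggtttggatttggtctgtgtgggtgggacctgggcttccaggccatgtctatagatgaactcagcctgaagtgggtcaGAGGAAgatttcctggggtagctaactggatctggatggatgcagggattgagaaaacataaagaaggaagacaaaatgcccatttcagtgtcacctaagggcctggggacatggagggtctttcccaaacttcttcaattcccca
Vsig4: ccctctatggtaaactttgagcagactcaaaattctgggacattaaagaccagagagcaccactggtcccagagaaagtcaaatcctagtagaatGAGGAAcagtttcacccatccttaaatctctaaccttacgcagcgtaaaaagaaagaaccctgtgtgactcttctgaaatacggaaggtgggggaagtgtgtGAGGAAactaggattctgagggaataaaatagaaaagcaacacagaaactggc
C1qb: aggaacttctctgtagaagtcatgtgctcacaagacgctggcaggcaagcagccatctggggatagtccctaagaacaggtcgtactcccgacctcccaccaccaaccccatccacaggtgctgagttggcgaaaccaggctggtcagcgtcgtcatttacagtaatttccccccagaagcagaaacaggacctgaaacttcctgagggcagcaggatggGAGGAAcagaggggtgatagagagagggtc
C1qc: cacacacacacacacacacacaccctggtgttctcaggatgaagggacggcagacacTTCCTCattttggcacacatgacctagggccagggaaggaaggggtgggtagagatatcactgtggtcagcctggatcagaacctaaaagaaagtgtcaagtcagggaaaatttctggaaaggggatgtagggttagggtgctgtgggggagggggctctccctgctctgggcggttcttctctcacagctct

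Vsig4 held the letters at 2 places, and Marco, C1qb and C1qc at 1 place each. In the GENCODE M21 annotation of mm10 the C1q genes lie side by side on the minus strand, C1qa at chr4:136895917-136898803, C1qc at chr4:136889804-136893065 and C1qb at chr4:136880129-136886187. Marco lies at chr1:120474538-120505024 and Vsig4 at chrX:96247203-96293438.

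Several features of the libraries bear on every comparison below. The libraries labelled LKO held Ftcd at 0.1 to 3.16 TPM and 6 of the 9 libraries labelled WT at 61.2 to 106.1 TPM, but untreated WT 3, DEN WT 1 and DEN WT 2 held it at 1.77, 2.36 and 2.50 TPM, which goes against their label. Below, WT and LKO stand for the libraries so labelled, and every direction between the genotypes rests on these labels. By Xist and Y-linked genes all libraries labelled WT, DEN LKO nontumour 1 and DEN LKO tumour 1 were XX and the other LKO libraries were XY, so between untreated WT and untreated LKO sex and genotype cannot be told apart. Transcripts of the mitochondrial genome took 4.24% to 38.8% of TPM, and over 30% in untreated LKO 2, DEN WT 1, DEN LKO nontumour 1 and DEN LKO tumour 1. Only the LKO nontumour and tumour groups given DEN held both XX and XY libraries. A term for sex, used below, therefore rests on DEN LKO nontumour 1 and DEN LKO tumour 1. In these libraries XX and a mitochondrial share over 30% come together, so the term cannot tell them apart. The hepatocyte genes Alb, Apoa1, Ttr, Serpina1a, Cps1 and Hnf4a summed to 16712 to 92467 TPM per library. In whole tissue, fewer macrophages and less RNA per macrophage cannot be told apart.

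The 36 genes together took between 117 and 2609 TPM of a library. The sums were 537, 354 and 211 TPM in untreated WT and 196, 117 and 128 TPM in untreated LKO, so that each untreated LKO library lay below each untreated WT library. After DEN they were 338, 664, 609, 490.1, 863 and 1134 TPM in WT nontumour liver, 326, 614 and 946 TPM in LKO nontumour liver, and 312, 626 and 2609 TPM in LKO tumours. DEN LKO tumour 3 was the highest of all 18 libraries for 23 of the 36 genes, DEN WT 6 for 9, DEN LKO nontumour 3 for 3 and DEN WT 5 for 1. Of the 32 genes above 0 in every library, 26 were lowest in an untreated LKO library.

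By mean over the 18 libraries the C1q A chain C1qa stood highest at 68.8 TPM, followed by Clec4f at 66.5, C1qb at 58.7 and Lyz2 at 56.9 TPM. C1qa, C1qb and C1qc encode the chains of the recognition protein of the classical complement pathway, Clec4f is a C-type lectin found on Kupffer cells, and Lyz2 encodes lysozyme. The ranges of these 4 genes overlap almost entirely, with C1qa at 11.7 to 350.2 TPM and Clec4f at 10.3 to 153 TPM, so the order among them does not go beyond their spread. A mean of 10 TPM or more was reached by 15 of the 36 genes, and 18 of the 33 tested genes held 1 TPM or more in every library. Gpnmb, Itgam and Ccr2 had means of 0.813, 0.260 and 0.253 TPM and were not tested. Spic, Ms4a7, Trem2 and Cx3cr1 were under 1 TPM in every untreated library and passed the filter through the DEN libraries, so their place among the tested genes is not independent of a difference after DEN.

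**Figure D1:**
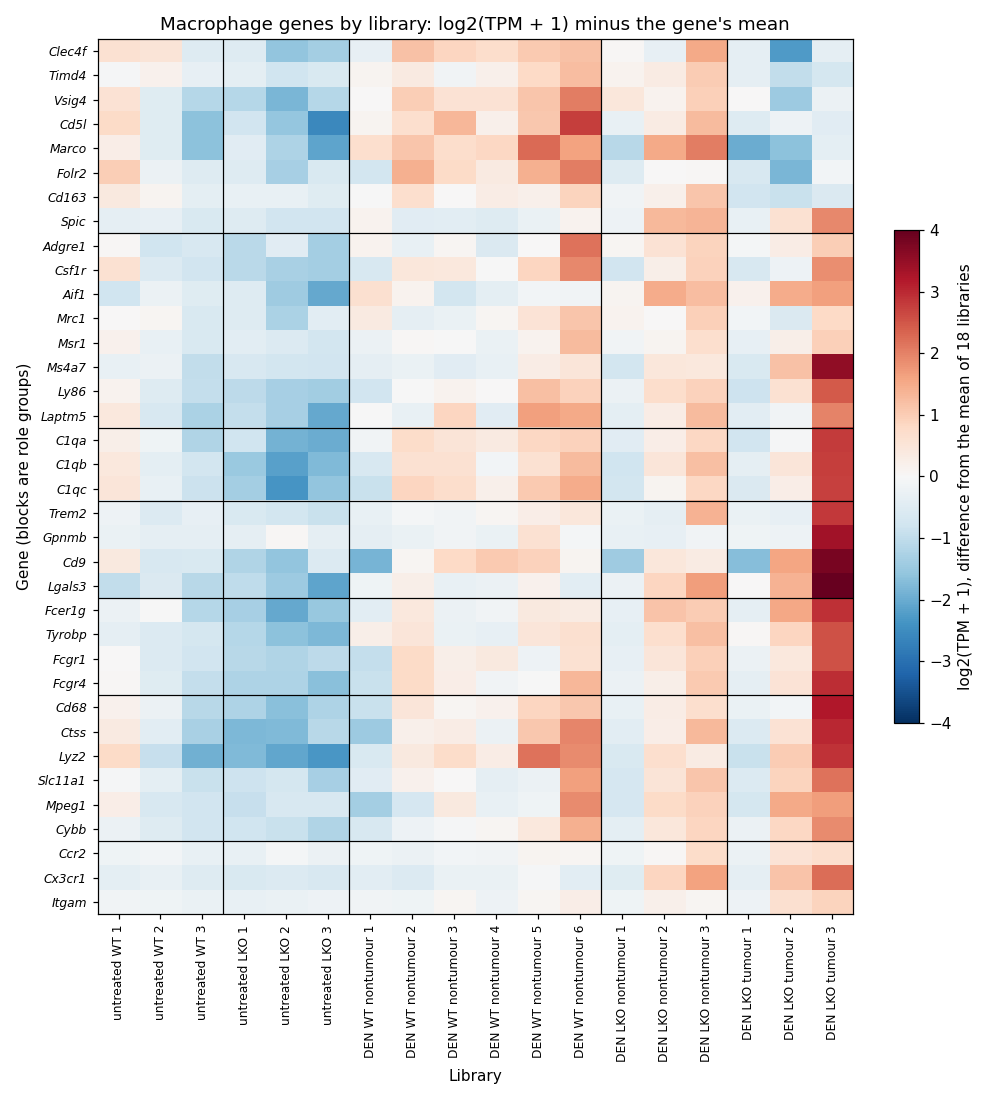
Level of the 36 genes (rows, grouped by role) in the 18 libraries (columns, grouped by tissue), as log2(TPM + 1) minus the gene's mean over all libraries, with blue below and red above that mean. The 3 untreated LKO columns are mostly blue, DEN LKO tumour 3 is red for most roles, and most resident rows at the top are blue in the 3 tumour columns.

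By mean TPM the resident Kupffer cell genes, except Spic, stood lower in tumours than in either nontumour group after DEN. For Marco, Cd5l and Folr2 single nontumour libraries overlapped the tumours. No single gene passed the threshold in the fit of all libraries. Untreated LKO liver was also low, with a resident sum of 29.19 to 59.77 TPM against 32.95 to 78.45 TPM in tumours. Its mean was below that of tumours for Clec4f (24.8 against 31.2 TPM), Vsig4 (3.87 against 8.02), Cd5l (5.91 against 13.4) and Folr2 (3.11 against 3.36). It was above for Timd4 (0.597 against 0.51 TPM), Marco (1.14 against 1.05) and Cd163 (0.733 against 0.323). The difference between tumours and untreated LKO liver was not tested. Clec4f was at 41.9, 10.3 and 41.3 TPM in the 3 tumours, at 54.9, 42.1 and 153 TPM in LKO nontumour liver and at 42.6 to 122 (median 105) TPM in DEN WT. All 3 tumours lay below all 9 nontumour libraries, although the nearest values, 41.9 TPM in a tumour, 42.1 TPM in DEN LKO nontumour 2 and 42.6 TPM in DEN WT 1, nearly touch. Its log2 difference on the log2(TPM + 1) scale was -1.39 ± 0.60 (SE; adjusted p = 0.943) between tumours and LKO nontumour liver and -1.76 ± 0.52 (SE; adjusted p = 0.156) between tumours and DEN WT by limma, 2-sided, with Benjamini-Hochberg adjustment over all tested genes. Neither passed an adjusted p of 0.05.

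Marco, a scavenger receptor that binds bacteria and particles, was at 0.16, 0.49 and 2.5 TPM in tumours, 1.16, 12.2 and 18.1 TPM in LKO nontumour liver and 6.32 to 21 (median 8.16) TPM in DEN WT. The tumours lay below all 6 DEN WT libraries, while DEN LKO nontumour 1 lay between tumours 2 and 3. The limma differences were -2.17 ± 0.72 (SE; adjusted p = 0.943) against LKO nontumour liver and -2.54 ± 0.63 (SE; adjusted p = 0.0814) against DEN WT. Marco was thus the member nearest to the threshold in the tumour against DEN WT comparison, and it passed under 5 alternatives: median-ratio scaling with -2.56 (adjusted p = 0.0303), quantile normalization with -2.64 (adjusted p = 0.0352), a term for sex with -3.82 (adjusted p = 0.047), and leaving out either the WT-labelled libraries of low Ftcd or the XX libraries labelled LKO, with adjusted p = 0.0442 and 0.0403. Over all alternatives its adjusted p ran from 0.0303 to 0.473.

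Timd4, a phosphatidylserine receptor by which long-lived resident macrophages take up dying cells, was at 0.86, 0.2 and 0.47 TPM in tumours against 1.61, 2.01 and 3.82 TPM in LKO nontumour liver and 1.19 to 4.64 (median 1.9) TPM in DEN WT. These low values did not overlap between tumours and either nontumour group. Vsig4, the complement receptor CRIg, was at 11.3, 3.47 and 9.32 TPM in tumours, 15.9, 12.6 and 22.6 TPM in LKO nontumour liver and 11.3 to 49.8 (median 20.1) TPM in DEN WT, and the tumours again lay below all 9, the highest tumour at 11.26 TPM just under DEN WT 1 at 11.32 TPM. Cd163, the receptor for haemoglobin bound to haptoglobin, was at 0.31, 0.19 and 0.47 TPM in tumours against 1.02, 1.53 and 3.75 TPM and 1.18 to 3.07 (median 1.63) TPM, also without overlap. The limma differences of tumours from DEN WT were -1.11 ± 0.31 (SE; adjusted p = 0.135) for Timd4, -1.45 ± 0.47 (SE; adjusted p = 0.197) for Vsig4 and -1.09 ± 0.30 (SE; adjusted p = 0.128) for Cd163. Timd4 and Cd163 passed with quantile normalization, at -1.08 and -1.11 (adjusted p = 0.0423 and 0.0437, and 0.0423 to 0.535 and 0.0437 to 0.473 over all alternatives).

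Cd5l, a secreted scavenger-receptor protein that Kupffer cells release into the blood, was at 12.2, 15.4 and 12.7 TPM in tumours and 19.6 to 128 (median 34) TPM in DEN WT, with a limma difference of -1.43 ± 0.60 (SE; adjusted p = 0.377). No tumour reached the lowest DEN WT library, whereas DEN LKO nontumour 1 at 14.5 TPM lay below tumour 2. Folr2, a folate receptor of tissue-resident macrophages, was at 3.58, 1.0 and 5.51 TPM in tumours and 3.21 to 27.9 (median 14.5) TPM in DEN WT, where DEN WT 1 at 3.21 TPM lay among the tumours. Its difference of -1.73 ± 0.53 (SE; adjusted p = 0.173) passed without DEN WT 1, at -2.06 ± 0.46 (adjusted p = 0.0374, and 0.0374 to 0.67 over all alternatives), and under both scalings between libraries.

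Spic was the exception among the resident genes. It encodes an Ets factor of iron-recycling macrophages and was at 0.55, 1.9 and 6.16 TPM in tumours, 0.67, 3.63 and 3.9 TPM in LKO nontumour liver, 0.33 to 1.11 (median 0.495) TPM in DEN WT and under 1 TPM in every untreated library. The XX libraries DEN LKO nontumour 1 and DEN LKO tumour 1 held it within the DEN WT range and the 4 XY ones lay above it. Its limma difference from DEN WT was 1.05 ± 0.40 (SE; adjusted p = 0.347) for LKO nontumour liver and 0.97 ± 0.40 (SE; adjusted p = 0.368) for tumours. Without the XX libraries labelled LKO, an alternative chosen after seeing the data, the differences were 1.56 and 1.49, in comparisons where genotype and sex cannot be told apart. Spic reached 1 TPM in 6 libraries, 4 of them these XY ones, so these values are a description.

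**Figure D2:**
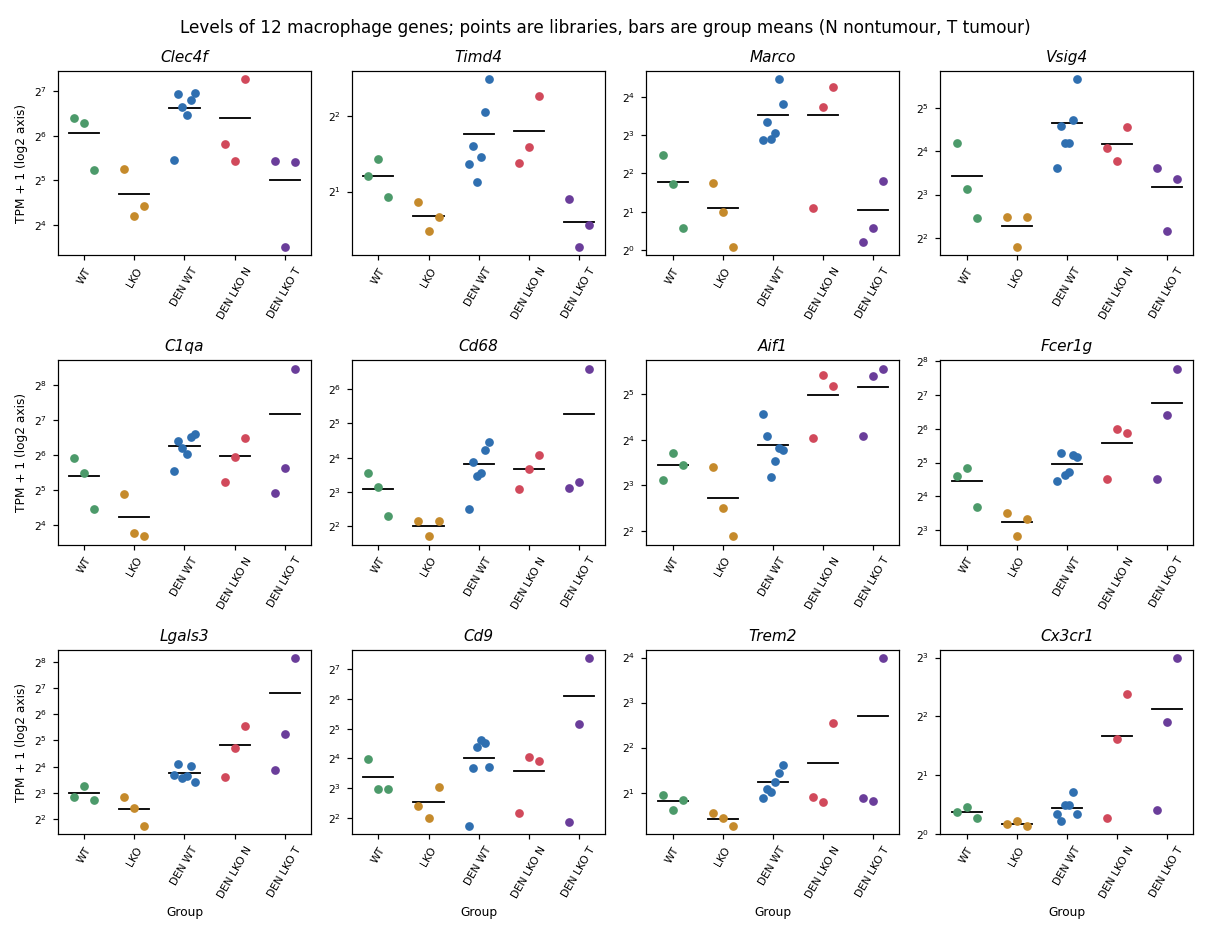
TPM of selected genes in each library for 12 of the 36 genes, on a log2 axis of TPM + 1, with 1 point per library and a bar at each group's mean TPM (N is nontumour liver and T tumour). Clec4f, Timd4 and Vsig4 points of the 3 tumours lie below the lowest nontumour points after DEN, while the highest C1qa, Lgals3 and Cd9 points belong to DEN LKO tumour 3.

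Against DEN WT, 7 of the 8 resident genes had a limma difference below 0 in tumours, with a median of -1.44, and 22 of the other 25 tested members had one above 0, with a median of 0.68. The median over all 13872 genes was 0.04. Spic among the 8 resident genes, and Ms4a7, Trem2 and Cx3cr1 among the other 25, passed the filter through DEN libraries. Their place in the counts and medians of this paragraph is no support. The 2 groups of genes depended on the tumours in different ways: without DEN LKO tumour 3 the resident genes kept a median of -1.50 and 7 of 8 below 0, whereas the other members went to a median of -0.20 and 9 of 25 above 0. A term for sex gave a median of -1.49 for the resident genes and -0.36 for the others, with 4 of 25 above 0. Against LKO nontumour liver all 8 resident genes were below 0 (median -1.11) and 23 of the other 25 above 0 (median 0.52), and without tumour 3 these became 8 of 8 (median -1.19) and 4 of 25 (median -0.26), with the all-gene median at 0.23 in the fit of all libraries. Median-ratio scaling moved that all-gene median to 0.01 and left 18 of the 25 above 0, with the resident median at -1.24.

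In the tumour against DEN WT comparison 0 of the 33 members passed limma, where 0.497% of all tested genes did. At an unadjusted p under 0.05, 7 members were lower, where 4.3% of all genes were, and the 7 were all resident genes (Marco, Cd163, Timd4, Clec4f, Folr2, Vsig4 and Cd5l). Another 6 were higher (Lgals3, Cx3cr1, Aif1, Ms4a7, Spic and Fcer1g), against 6.24% of all genes. Of these, Cx3cr1, Ms4a7 and Spic passed the filter through DEN libraries, so their place in this count is no support. For 6 members, all resident, every tumour lay below every DEN WT library, which held for 1.14% of all genes. Against LKO nontumour liver 0 members and 0% of all genes passed, 4 members (Clec4f, Timd4, Marco and Cd163) were lower at an unadjusted p under 0.05 against 1.36% of all genes, and 4 (Clec4f, Timd4, Vsig4 and Cd163) did not overlap, against 2.02%. At an unadjusted p under 0.05 the 6 higher members against DEN WT became 0 without tumour 3 (4.24% of all genes) and 14 without tumour 1 (12.5%), and the 7 lower ones 4 without tumour 2. Against LKO nontumour liver, 2 members were lower without LKO nontumour 3, and 7 were higher without tumour 1, where 11.8% of all genes were.

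The members without overlap also moved. Against DEN WT, median-ratio scaling gave 3 lower and 2 higher, with 3.37% and 2.9% of all genes. Without the XX libraries labelled LKO, 6 were lower and 8 higher, with 2.37% and 11.2% of all genes, and without the libraries of over 30% mitochondrial TPM 7 and 8, with 4.47% and 13.3%. Without the WT libraries of low Ftcd they were 7 and 1, with 8.46% and 4.85%. Against LKO nontumour liver, leaving out tumour 1 and LKO nontumour 1 gave 7 lower and 5 higher, with 12.5% and 36.3% of all genes, and median-ratio scaling gave 6 lower, with 3.45%.

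**Figure D3:**
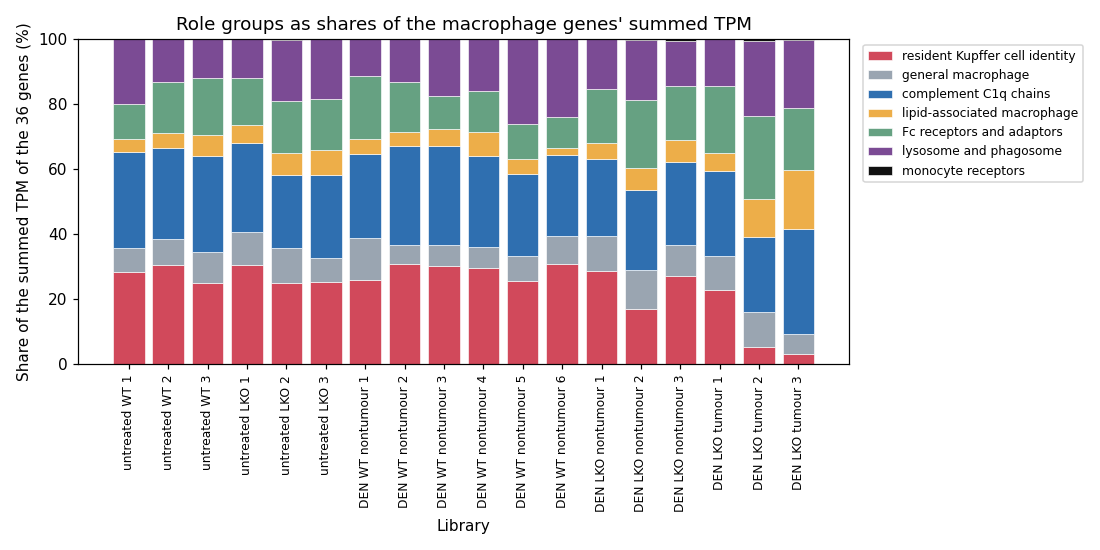
Share of the 36 genes' summed TPM that each role takes in each library, in percent, stacked to 100. The resident share is 22.7%, 5.3% and 3.0% in the 3 tumours and 16.8% to 30.9% elsewhere, and the lipid-associated share reaches 18.1% in DEN LKO tumour 3.

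The share of a role also depends on the other members of the list. The resident genes took 24.9% to 30.3% of the 36 genes' TPM in untreated WT, 25.0% to 30.5% in untreated LKO and 25.4% to 30.9% in DEN WT. In LKO nontumour liver they took 28.8%, 16.8% and 27.1%, and in the tumours 22.7%, 5.3% and 3.0%. The resident genes summed to 70.78, 32.95 and 78.45 TPM in the tumours, so tumour 3, with the lowest share, had the highest resident sum of the 3. Tumour 1, the XX tumour with 31.4% mitochondrial TPM, stood nearer in its share to nontumour liver than tumours 2 and 3 did. C1q chains took 22.8% to 32.5% in tumours and 22.4% to 30.3% in the other groups. The lipid-associated genes took 5.6%, 11.7% and 18.1% in tumours and 2.1% to 7.6% elsewhere, most of it from Cd9 and Lgals3.

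The C1q chains had another pattern. C1qa was at 29.2, 48.1 and 350.2 TPM in tumours, 36.3, 60.1 and 88.4 TPM in LKO nontumour liver and 45.1 to 95.5 (median 77.1) TPM in DEN WT. C1qb was at 32.3, 58.1 and 288 TPM and C1qc at 19.9, 36.4 and 209 TPM in tumours. Tumour 3 lay far above all nontumour libraries for all 3 chains, tumour 2 lay within their range, and tumour 1 lay within it for C1qb and C1qc and just below it for C1qa. The differences of tumours from DEN WT were 0.13 ± 0.60 (SE; adjusted p = 0.974) for C1qa, 0.59 ± 0.60 (SE; adjusted p = 0.813) for C1qb and 0.23 ± 0.64 (SE; adjusted p = 0.948) for C1qc by limma.

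Among the lipid-associated genes, Lgals3 and Cd9 were the abundant ones and Trem2 and Gpnmb were low outside tumour 3. Lgals3 encodes galectin-3, a secreted lectin, and was at 13.7, 37.4 and 280.0 TPM in tumours, 11.2, 25.2 and 45.7 TPM in LKO nontumour liver and 9.84 to 16.1 (median 11.7) TPM in DEN WT. Tumour 1 lay within the DEN WT range and tumours 2 and 3 above it, and the limma difference of 2.02 ± 0.64 (SE; adjusted p = 0.186) became 2.96 ± 0.60 (adjusted p = 0.01, and 0.00644 to 0.641 over all alternatives) without tumour 1. Against LKO nontumour liver it was 1.14 ± 0.74 (SE; adjusted p = 0.943) and went to -0.05 without tumour 3.

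Cd9, a tetraspanin of many cell types, was at 2.68, 35 and 165 TPM in tumours, 3.47, 15.4 and 14.1 TPM in LKO nontumour liver and 2.33 to 23.9 (median 16) TPM in DEN WT. The lowest value of each DEN group was in its library number 1, each with over 30% mitochondrial TPM. Trem2, a lipid receptor that signals through Tyrobp, was at 0.84, 0.76 and 14.9 TPM in tumours and 0.86, 0.72 and 4.87 TPM in LKO nontumour liver, and Gpnmb, a lysosomal glycoprotein, at 0.14, 0.13 and 12.2 TPM in tumours and at most 0.97 TPM in any other library. Gpnmb stood apart in tumour 3 alone, and Trem2 in tumour 3 and, less far, in DEN LKO nontumour 3. Lgals3 and Cd9 are also made by epithelial cells, and the part of cells other than macrophages in their values was not tested.

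Monocyte receptors were low in whole liver. Cx3cr1, the fractalkine receptor, was at 0.33, 2.75 and 6.95 TPM in tumours, 0.21, 2.07 and 4.19 TPM in LKO nontumour liver, 0.17 to 0.63 (median 0.33) TPM in DEN WT and at most 0.37 TPM in untreated liver. The 4 XY libraries of LKO mice given DEN lay above all other libraries. Limma gave 1.34 ± 0.44 (SE; adjusted p = 0.212) between tumours and DEN WT, and without the XX libraries labelled LKO the difference was 2.02 in tumours and 1.57 in LKO nontumour liver. The gene reached 1 TPM in these 4 XY libraries and in no other, and so passed the filter through them, which makes these values a description. A term for sex turned the nontumour difference from 0.99 to -0.26. Ccr2, the receptor for Ccl2 on blood monocytes, was at 0.04, 0.8 and 0.95 TPM in tumours and 0.09, 0.25 and 1.04 TPM in LKO nontumour liver, and Itgam, integrin alpha M of monocytes and neutrophils, at 0.06, 0.91 and 1.29 TPM in tumours and 0.08, 0.42 and 0.29 TPM in LKO nontumour liver. In the other groups neither exceeded 0.48 TPM.

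Fc receptor genes and their adaptors were at their highest in tumour 3. Fcer1g, the common gamma chain of Fc receptors, was at 21.7, 83.5 and 218 TPM in tumours, 21.8, 62.3 and 57.2 TPM in LKO nontumour liver and 20.8 to 37.7 (median 30.2) TPM in DEN WT. Tyrobp, the adaptor DAP12, was at 37.9, 66.2 and 216 TPM, 27.7, 58.2 and 85.4 TPM and 28.8 to 57.1 (median 47.1) TPM in the same order. For both genes tumours 2 and 3 lay above all DEN WT libraries and tumour 1 within their range. The limma difference of tumours from DEN WT was 1.32 ± 0.55 (SE; adjusted p = 0.368) for Fcer1g and 0.94 ± 0.47 (SE; adjusted p = 0.51) for Tyrobp, and Fcer1g passed without tumour 1, at 2.18 ± 0.48 (adjusted p = 0.0177, and 0.00929 to 0.988 over all alternatives).

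Among general macrophage genes Aif1, Adgre1, Csf1r and Ms4a7 had different patterns. Aif1, a calcium-binding protein of the macrophage cytoskeleton, was at 16, 41.1 and 46.1 TPM in tumours, 15.3, 41.8 and 35.1 TPM in LKO nontumour liver and 8.06 to 22.5 (median 12.9) TPM in DEN WT, and the 4 XY libraries of LKO mice given DEN lay above all other libraries. Adgre1, which encodes F4/80, was at 2.04, 2.97 and 5.36 TPM in tumours, 2.44, 3.84 and 5.0 TPM in LKO nontumour liver and 1.18 to 13.5 (median 2.35) TPM in DEN WT. Csf1r, the receptor through which macrophages receive their survival signal, was at 3.28, 4.73 and 23.2 TPM in tumours, 2.93, 6.78 and 11.4 TPM in LKO nontumour liver and 3.27 to 24.1 (median 8.0) TPM in DEN WT. The Adgre1 and Csf1r groups overlapped, with DEN WT 6 the highest library for both. Ms4a7, a membrane protein of macrophages, was at 0.29, 3.38 and 21.8 TPM in tumours, 0.17, 1.68 and 1.63 TPM in LKO nontumour liver and 0.42 to 1.73 (median 0.61) TPM in DEN WT, and its difference of tumours from DEN WT, 1.47 ± 0.58 (SE; adjusted p = 0.334), became 2.45 without tumour 1, a description for a gene that passed the filter through DEN libraries.

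Of the 6 lysosome and phagosome genes, all but Mpeg1 were highest in tumour 3. Cd68, a lysosomal membrane glycoprotein of macrophages, was at 7.73, 8.73 and 95.6 TPM in tumours against 4.63 to 21 (median 12.1) TPM in DEN WT. Ctss, the protease cathepsin S, was at 10.3, 23.5 and 132 TPM against 5.01 to 62.7 (median 18.6) TPM, and Lyz2 at 17.7, 69.9 and 258 TPM against 21.8 to 158 (median 51.2) TPM. Tumours 1 and 2 lay within the DEN WT range for these 3 genes except that tumour 1 was below it for Lyz2, and the differences of 0.65 ± 0.62 (SE; adjusted p = 0.8), 0.71 ± 0.72 (SE; adjusted p = 0.813) and 0.19 ± 0.75 (SE; adjusted p = 0.965) did not pass limma. Slc11a1, a metal transporter of the phagosome, Mpeg1, a pore-forming protein, and Cybb, the catalytic subunit of the phagocyte NADPH oxidase, had differences of 0.71, 0.86 and 0.65.

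Leaving out whole sets of libraries changed which members passed in this comparison. Without the 4 libraries of over 30% mitochondrial TPM, an alternative chosen after seeing the data, 9 members passed, where 4.15% of all genes did: Aif1, Cd9, Lgals3 and Fcer1g rose and Clec4f and Folr2 fell, with Lgals3 at 2.95 ± 0.60 (adjusted p = 0.0143, and 0.00644 to 0.641 over all alternatives) and Clec4f at -2.30 ± 0.57 (adjusted p = 0.0385, and 0.0385 to 0.678 over all alternatives). The other 3, Spic, Ms4a7 and Cx3cr1, were on the higher side. Without the XX libraries labelled LKO, 7 passed, where 3.89% of all genes did: Aif1, Lgals3 and Fcer1g rose, Marco fell, and Spic, Ms4a7 and Cx3cr1 were again higher. Spic, Ms4a7 and Cx3cr1 had passed the filter through DEN libraries, so their place in these counts is no support. In both settings, and wherever tumour 1 is left out, the remaining tumours were XY and all WT libraries XX, so sex cannot be told apart from the difference between tumour and WT liver.

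LKO nontumour liver and DEN WT liver overlapped for every tested member when all libraries were used. The limma difference was above 0 for 20 of the 33 members and below 0 for 13, with a median of 0.07 against -0.19 for all genes. The 33 include Spic, Ms4a7, Trem2 and Cx3cr1, which passed the filter through DEN libraries and are no support. The members' median was -0.86 with a term for sex, and it ran from -0.22 without LKO nontumour 3 to 0.46 without LKO nontumour 1. Folr2 had the difference farthest below 0: it was at 3.98, 6.17 and 6.33 TPM in LKO nontumour liver against 3.21 to 27.9 (median 14.5) TPM in DEN WT, within the WT range, at -1.02 ± 0.53 (SE; adjusted p = 0.398). Lyz2 at 21.9, 55.3 and 43.5 TPM and Cd5l at 14.5, 22.9 and 44.9 TPM followed, with -0.67 ± 0.75 (SE; adjusted p = 0.649) and -0.59 ± 0.60 (SE; adjusted p = 0.622), and both signs turned with the mitochondrial share as a covariate. Aif1 and Cx3cr1 were farthest above 0 besides Spic, at 1.05 ± 0.44 (SE; adjusted p = 0.357) and 0.99 ± 0.44 (SE; adjusted p = 0.365). In limma 0 members passed, against 0.0577% of all genes, and Spic, Aif1 and Cx3cr1 were higher at an unadjusted p under 0.05, where 6.56% of all genes were. Without LKO nontumour 2 or without LKO nontumour 3 that count was 0. For 0 members did the groups separate, which happened for 2.33% of all genes upward and 1.73% downward. Without LKO nontumour 1, the XX library, 6 members lay above all DEN WT libraries, against 8.3% of all genes. Without the libraries of over 30% mitochondrial TPM 6 lay above and 1 below, against 14.0% and 14.4%, and without the WT libraries of low Ftcd 1 above and 1 below, against 8.63% and 29.6%. Spic and Cx3cr1 passed limma without both XX libraries labelled LKO, where 0.512% of all genes did, and without the libraries of over 30% mitochondrial TPM, where 2.57% did, but 0 members passed without LKO nontumour 1 alone. Both settings leave XY LKO libraries against XX WT ones, and both genes passed the filter through DEN libraries. Without the WT libraries of low Ftcd the members' median was -0.11 against -0.41 for all genes.

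In untreated liver each of the 33 tested members had a lower mean log2 level in LKO than in WT libraries, and none passed the test. C1qb was at 56.2, 31.6 and 24.7 TPM in WT and 14.1, 8.3 and 11.4 TPM in LKO liver, and C1qc at 43.3, 24.3 and 16.4 against 11.1, 5.09 and 9.42 TPM. Every LKO library lay below every WT library for both chains, at -1.59 ± 0.69 (SE; adjusted p = 0.831) and -1.55 ± 0.74 (SE; adjusted p = 0.831) by limma. C1qa, at 58.7, 43.8 and 21.1 against 28.6, 12.7 and 11.7 TPM, overlapped in untreated WT 3 and LKO 1.

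Lyz2 had the third-largest difference, -1.36 ± 0.86 (SE; adjusted p = 0.831), with 58.1, 17.3 and 8.3 TPM in WT and 9.33, 7.35 and 5.96 TPM in LKO liver. WT 1 stood far above the rest, and WT 3 at 8.3 TPM lay within the LKO values. Clec4f was at 82.7, 76.3 and 36.8 TPM in WT and 36.8, 17.2 and 20.4 TPM in LKO liver and met at 36.75 TPM in WT 3 and 36.83 TPM in LKO 1, with -1.35 ± 0.60 (SE; adjusted p = 0.831). WT 3, the lowest of the untreated WT libraries for 31 of the 36 genes, is the one with low Ftcd.

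The median over the members was -0.83 and that over all genes -0.33. Median-ratio scaling brought the all-gene median to 0.02 and the members' median to -0.48, so that their distance stayed near 0.50, and 32 of 33 members were then below 0. In limma 0 of the 33 passed, against 0.433% of all genes, and Clec4f, C1qb and C1qc were lower at an unadjusted p under 0.05, where 2.7% of all genes were. For 13 members (Timd4, Csf1r, Ly86, C1qb, C1qc, Trem2, Fcer1g, Tyrobp, Fcgr1, Fcgr4, Cd68, Cybb and Cx3cr1) the groups did not overlap with LKO lower, against 8.97% of all genes. The count was 5 under median-ratio scaling, against 5.38% of all genes, and 28 without the WT library of low Ftcd, against 21.0%. Of the 13, Trem2 and Cx3cr1 were under 1 TPM in every untreated library, and Timd4, Fcgr1 and Cybb at most 1.71, 2.01 and 1.19 TPM there. The unknown depth limits what such low values can show. The 3 members at an unadjusted p under 0.05 became 0 without WT 1, WT 2, LKO 2 or LKO 3 and 6 without WT 3. The mitochondrial share was 4.24%, 10.0% and 23.2% in WT and 20.6%, 30.9% and 17.9% in LKO libraries, and with it as a covariate the members' median was -0.18. Genes of several other cells lay on the same side: 5 of 6 hepatocyte genes (median -0.88), all 8 endothelial genes (-0.60), all 4 pan-leukocyte genes (-0.83) and all 4 tested B and plasma cell genes (-0.92) were lower in LKO on average, and 0 of them passed limma. All 9 Kupffer cell transcription factors (-0.74), all 4 tested monocyte genes (-1.03) and 6 of 7 stellate cell genes (-0.36) were also lower on average. The same held for 8 of 9 tested lipid-associated genes outside the members (-0.76). Red cell and cholangiocyte genes did not lie on this side: 5 of 5 (0.45) and 4 of 5 (0.08) lay above 0. Tested neutrophil genes split 2 and 2 (-0.01), and T and NK cell genes 3 above and 4 below 0 (-0.47). The part of these cells in the members' difference was not tested.

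DEN nontumour liver of LKO mice held more of nearly every member than untreated LKO liver did. Aif1 was at 9.56, 4.69 and 2.69 TPM in untreated and 15.3, 41.8 and 35.1 TPM in DEN LKO liver, Fcer1g at 10.4, 6.05 and 9.09 against 21.8, 62.3 and 57.2 TPM, and Lgals3 at 6.21, 4.34 and 2.37 against 11.2, 25.2 and 45.7 TPM. The groups did not overlap for any of the 3 genes, with DEN LKO nontumour 1 the lowest of its group each time. By limma the differences were 2.28 ± 0.51 (SE; adjusted p = 0.169) for Aif1, 2.23 ± 0.63 (SE; adjusted p = 0.361) for Fcer1g and 2.28 ± 0.74 (SE; adjusted p = 0.465) for Lgals3. Tyrobp, at 15.9, 11 and 9.81 against 27.7, 58.2 and 85.4 TPM, gave 2.02 ± 0.55 (SE; adjusted p = 0.345).

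The resident genes lay on the same side in this comparison. Vsig4 was at 4.55, 2.46 and 4.59 TPM in untreated and 15.9, 12.6 and 22.6 TPM in DEN LKO liver, Timd4 at 0.82, 0.39 and 0.58 against 1.61, 2.01 and 3.82 TPM, and Cd5l at 10.1, 5.43 and 2.17 against 14.5, 22.9 and 44.9 TPM. None of the 3 genes overlapped between the groups, and Clec4f, at 36.8, 17.2 and 20.4 against 54.9, 42.1 and 153 TPM, did not either. The differences were 1.89 ± 0.54 (SE; adjusted p = 0.361), 1.08 ± 0.36 (SE; adjusted p = 0.519), 2.08 ± 0.69 (SE; adjusted p = 0.518) and 1.55 ± 0.60 (SE; adjusted p = 0.688) by limma. Marco, at 2.37, 0.98 and 0.06 against 1.16, 12.2 and 18.1 TPM, overlapped through the low value of DEN LKO nontumour 1. The median difference was 1.52 over the 8 resident genes, 1.84 over the C1q chains and 1.88 over the 4 Fc receptor genes.

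Over all 33 tested members every difference was above 0, with a median of 1.55 against 0.12 for all genes, and this split was the same under median-ratio scaling (median 1.46 against -0.02). In limma 0 members passed, against 0.0649% of all genes. At an unadjusted p under 0.05, 25 members were higher, against 5.05% of all genes. The count was 8 without LKO nontumour 3, where 2.07% of all genes were higher, and 14 without untreated LKO 3. For 29 members, all but Marco, Ms4a7, Cd9 and Mpeg1, every DEN library lay above every untreated one, against 9.86% of all genes, and the count was 25 under median-ratio scaling, against 8.61%. Spic, Trem2 and Cx3cr1 are among these 29, and with Ms4a7 among the 33 above 0. They passed the filter through DEN libraries, so their place in these counts is no support. A term for sex brought 8 members past the threshold, and 1.36% of all genes (the 8 were Marco, Spic, Aif1, C1qb, Lgals3, Fcer1g, Tyrobp and Cx3cr1), with Aif1 at 2.72 ± 0.43 (adjusted p = 0.00718, and 0.00718 to 0.779 over all alternatives). Among these 8, Spic and Cx3cr1 are likewise no support. Without DEN LKO nontumour 1, the XX library of this group, and DEN LKO tumour 1, all remaining LKO libraries were XY, 33 members did not overlap, against 25.3% of all genes. There 6 members and 0.706% of all genes passed: Marco, Aif1, Fcer1g and Tyrobp rose and Spic and Cx3cr1, which passed the filter through DEN libraries, were higher, with Marco at 3.05 ± 0.64 (adjusted p = 0.0384, and 0.0384 to 1 over all alternatives) and Tyrobp at 2.46 ± 0.50 (adjusted p = 0.0355, and 0.0125 to 1 over all alternatives). Without LKO nontumour 1 alone 0 members passed. The pan-leukocyte genes Ptprc, Cd53, Coro1a and Cd52 summed to 13.8 to 14.6 TPM in untreated and 28.6 to 115 TPM in DEN LKO liver. Lists of other cells also lay above 0: 4 of 4 tested B and plasma cell genes (median 0.90) and 5 of 5 cholangiocyte genes (0.57). So did 7 of 8 endothelial (0.47), 7 of 7 stellate cell (0.41) and 5 of 6 hepatocyte genes (0.19). Red cell genes split 3 above and 2 below 0 (0.004). The part of all these cells in the members' differences was not tested.

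**Figure D4:**
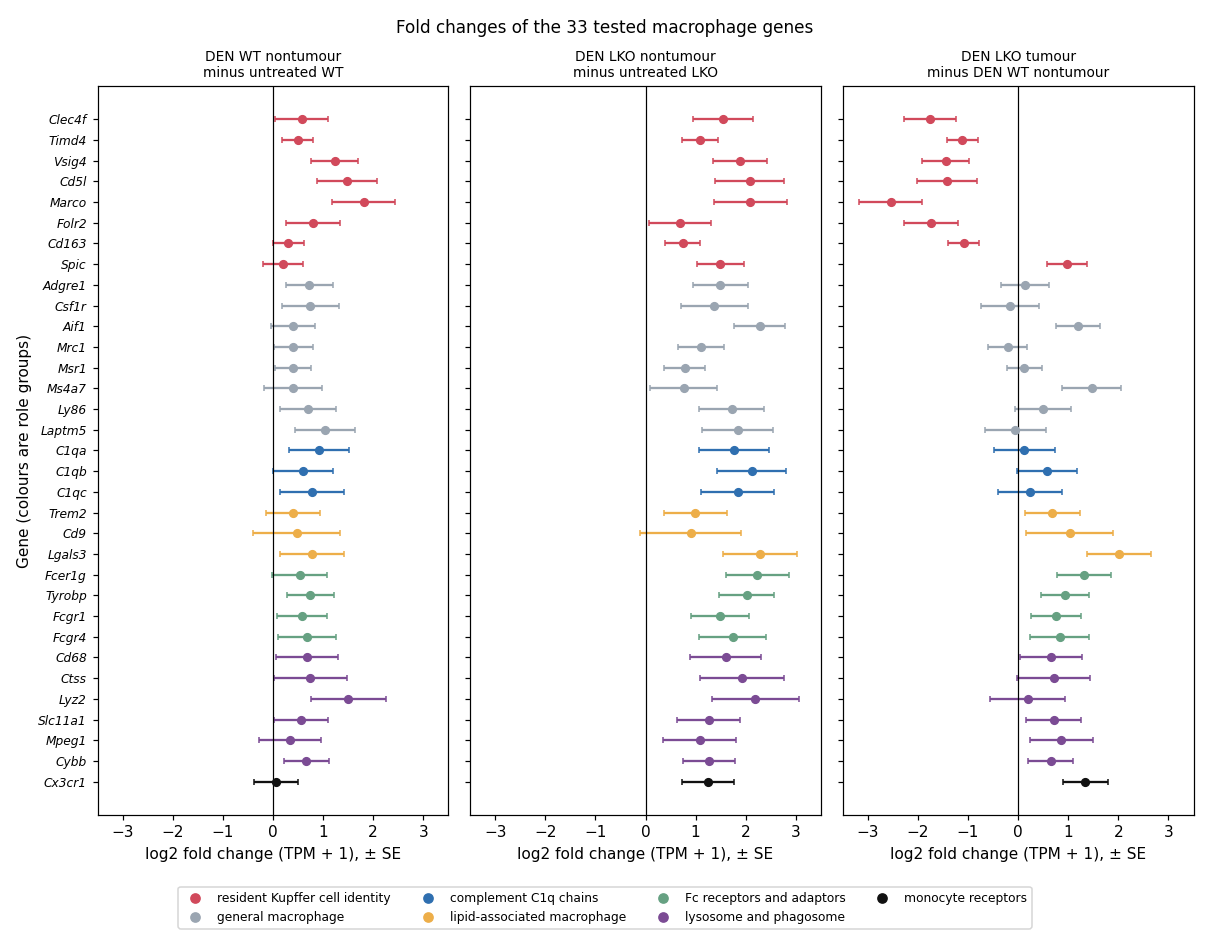
Limma log2 difference with its SE (bars) for each of the 33 tested members, coloured by role, in 3 comparisons on the log2(TPM + 1) scale with a line at 0. All members lie right of 0 after DEN in WT liver (median 0.67) and in LKO liver (median 1.55), and in tumours against DEN WT the resident genes lie left of 0 except Spic.

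In WT liver the members also stood higher after DEN than without it on average, and none passed the test. Marco was at 4.58, 2.3 and 0.49 TPM in untreated liver and 6.32 to 21 (median 8.16) TPM after DEN without overlap, at 1.81 ± 0.63 (SE; adjusted p = 1) by limma. Lyz2, at 58.1, 17.3 and 8.3 TPM and 21.8 to 158 (median 51.2) TPM, and Cd5l, at 31.3, 12.5 and 5.1 TPM and 19.6 to 128 (median 34) TPM, overlapped, with 1.51 ± 0.75 (SE; adjusted p = 1) and 1.48 ± 0.60 (SE; adjusted p = 1). All 33 members had a difference above 0, with a median of 0.67 against 0.01 for all genes, and of 0.60 against -0.01 under median-ratio scaling. The 33 include Spic, Ms4a7, Trem2 and Cx3cr1, which passed the filter through DEN libraries and are no support. In limma 0 members passed, as did 0% of all genes, while Marco, Vsig4 and Cd5l were higher at an unadjusted p under 0.05, against 0.411% of all genes. The last count was 0 without untreated WT 3, 1 without untreated WT 2, 2 without DEN WT 6, 5 without DEN WT 1 and 6 without untreated WT 1. Marco, Lgals3 and Tyrobp did not overlap, against 0.49% of all genes. That count of 3 became 6 under median-ratio scaling, 7 without DEN WT 1, which has over 30% mitochondrial TPM, and 7 without the WT libraries of low Ftcd, against 1.06%, 1.25% and 5.12% of all genes. Genes of several other cells also lay higher after DEN on average: all 7 tested T and NK cell genes (median 0.51), 4 of 4 B and plasma cell genes (0.93), 4 of 4 pan-leukocyte genes (0.64), 7 of 7 stellate cell genes (0.28) and 5 of 5 red cell genes (1.03), none of which passed limma. Hepatocyte genes split 3 above and 3 below 0 (-0.01), and Kupffer cell transcription factors 4 above and 5 below (-0.12). The part of these cells in the members' differences was not tested.

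Whether the change with DEN differed between genotypes was tested as the difference of the LKO minus WT differences. It was above 0 for 32 of the 33 members, with a median of 0.76 against 0.11 for all genes, and the exception was Folr2 at -0.12. Aif1 had the value nearest to the threshold, 1.88 ± 0.67 (SE; adjusted p = 1), and was the 1 member at an unadjusted p under 0.05, where 1.87% of all genes were higher. That count was 2 without untreated WT 3 or without DEN WT 1, 3 without DEN WT 6 and 6 without LKO nontumour 1. In limma 0 members and 0% of all genes passed, so the difference between the genotypes in their change with DEN was not shown for any member. These comparisons share the untreated and DEN libraries of each genotype.

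Genes of the same pathways outside the list were read from 18 lists with 111 genes, 91 of them tested. Over the 7 comparisons 3 gene and comparison pairs passed limma. These 3 were chosen after their values were seen: Lpl, a lipase of the lipid-associated programme that other liver cells also make, rose in tumours against DEN WT by 2.73 ± 0.52 (SE; adjusted p = 0.0219), Birc5, a cell division gene, rose there by 1.71 ± 0.37 (SE; adjusted p = 0.0463), and Alas2, a haem synthesis enzyme of red cell precursors, rose in untreated LKO against WT liver by 3.25 ± 0.59 (SE; adjusted p = 0.0137). Lpl was at 8.98, 53.7 and 43.3 TPM in the tumours. Its list did not rise as a whole: of its 9 tested genes, 4 lay above 0 and 5 below in tumours against DEN WT (median -0.04).

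The ligands of macrophage receptors, Csf1 for Csf1r, Il34 for the same receptor and Ccl2 for Ccr2, passed in 0 comparisons. Csf1 was at 1.08, 1.19 and 0.69 TPM in untreated LKO liver, 1.06, 3.3 and 4.13 TPM in LKO nontumour liver and 1.44, 2.21 and 10.1 TPM in tumours, and Ccl2 at 0.24, 0.25 and 0.5 TPM in untreated LKO liver, 0.36, 1.59 and 0.7 TPM in LKO nontumour liver and 0.17, 3.84 and 10.1 TPM in tumours. Both were highest in tumour 3 within their group, as were most members. In WT liver Csf1 was at 4.22, 4.69 and 1.24 TPM untreated and 0.64 to 5.36 TPM after DEN. Ccl2 was there at 1.12, 0.66 and 0.23 TPM and at 0 to 0.9 TPM. Of the transcription factors, Cebpa and Nr1h3 are also expressed by hepatocytes. Nr1h3 was at 21.6, 35.1 and 31.6 TPM in LKO nontumour liver and 22.7, 37 and 76.3 TPM in tumours. It was at 37.2, 23.6 and 50 TPM in untreated LKO, 98.6, 46.5 and 49 TPM in untreated WT and 33.4 to 92.1 TPM in DEN WT. Spi1, which encodes PU.1, was at 2.03, 1.4 and 0.94 TPM in untreated LKO liver, 3.28, 8.95 and 15.1 TPM in LKO nontumour liver and 5.91, 11.7 and 24.8 TPM in tumours. In WT liver Spi1 was at 4.54, 3.89 and 2.75 TPM untreated and 3.79 to 8.45 TPM after DEN.

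Markers of other immune cells were also present in these tissues. T and NK cell genes summed to 2.83 to 8.48 TPM in untreated LKO, 6.15 to 19.1 TPM in LKO nontumour liver and 7.96 to 40.5 TPM in tumours, where tumour 3 was the highest. Neutrophil genes summed to 4.15 to 11, 12 to 38.5 and 5.86 to 20.3 TPM in the same order, and dendritic cell genes to 0.57 to 2.16, 2.78 to 6.02 and 2.25 to 2.7 TPM. Monocyte genes, led by Fn1, which hepatocytes also make, summed to 70.7 to 88.4 TPM in LKO nontumour liver, 40.8 to 214 TPM in tumours and 45.4 to 631 TPM (median 246) in DEN WT, and all 4 tested ones lay below 0 in tumours against DEN WT (median -0.66). In DEN WT the T and NK cell, neutrophil, dendritic cell and endothelial sums ranged over 5.83 to 38.8, 6.14 to 20.4, 0.93 to 3.38 and 33 to 140.2 TPM. The pan-leukocyte genes summed to 29.7, 113 and 259.6 TPM in tumours and cell division genes to 7.65, 13.7 and 68.5 TPM, so the library with the most macrophage RNA, tumour 3, also held the most of both. Endothelial genes, which mark the cells that house Kupffer cells, summed to 33.5 to 50.5 TPM in LKO nontumour liver and 27.9 to 71 TPM in tumours. The part of these cells in the members' values was not tested.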

How the data were processed

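RNA sequencing values of 18 mouse liver libraries were read from 1 gene table in TPM deposited by the authors, who per the labels' protocols extracted RNA with TRIzol and made TruSeq libraries. The submitters' processing notes name mm10, RSEM, HISAT and fastp, and no source used here gives their versions or settings. Libraries summed to 999999 to 1000001 TPM, so counts and depth could not be recovered. Group means by the authors were left unused, and the table held 0 other columns per sample. Of 153 pairs of libraries, 0 held identical values.

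Levels were taken as log2(TPM + 1), which understates differences of low genes, and a gene was tested if 3 or more libraries reached 1 TPM. All libraries and 5 group means entered 1 fit with limma (version 3.58.1, R 4.3.3) and a variance trend, 2-sided, with Benjamini-Hochberg adjustment over the 13872 tested genes of each comparison and a threshold of 0.05. The fit was tested on simulated data. Tables and figures used Python 3.11.15 with pandas 2.3.3, numpy 2.4.6 and matplotlib 3.10.9. Coordinates are from GENCODE M21 and promoter sequences from RefSeq.

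The members, gene lists, comparisons and alternatives were chosen with earlier results of these data known, and the sets without libraries of high mitochondrial share or without XX libraries labelled LKO after seeing the values. By rule, a fixed set of 22 members is given by library, with any member that passed and, per comparison, up to 3 tested members farthest above and 3 farthest below 0 whose higher group averaged at least 2 TPM. Members outside the rule were named after their values were seen. Alternatives were a pseudocount of 0.1, no filter, other scalings, the compared groups alone, a replicate block, terms for sex and mitochondrial share, and leaving out libraries.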

Additional observations from a re-analysis of the deposited data

Results flagged for a closer look

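Within the 6 DEN WT libraries, the 36 members were each searched for a single library far from the others on the log2(TPM + 1) scale, and 6 were found, where chance flags about 1 in 20 such groups. DEN WT 1 was the low one for Clec4f, at 42.57 TPM against 87.8 to 122.4 TPM in the others, and for Cd9, at 2.33 TPM against 11.7 to 23.9 TPM; it held 38.8% mitochondrial TPM and low Ftcd. DEN WT 6 was the high one for Adgre1, at 13.53 TPM against 1.18 to 2.56 TPM, for Msr1, at 3.95 TPM against 0.70 to 1.27 TPM, and for Slc11a1, at 11.68 TPM against 1.97 to 3.58 TPM. DEN WT 5 was the high one for Gpnmb, at 0.97 TPM against 0 to 0.21 TPM.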

How the results depend on the processing

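Of the recomputed counts and medians over the members, 257 stayed within 1.5 times the main count or 1 SD of the main median and 17 did not, and of 504 recomputed differences of named members, 470 kept their direction and side of the threshold, 30 passed it and 4 turned. With a term for sex the members' median was -2.25 in untreated LKO against WT, -0.86 in LKO nontumour liver against DEN WT and -0.47 in tumours against DEN WT, and with mitochondrial share as a covariate the first was -0.18. The sex term rested on DEN LKO nontumour 1 and DEN LKO tumour 1, both with over 30% mitochondrial TPM. In untreated LKO against WT, 22.6% of all genes were lower at an unadjusted limma p under 0.05 with that term, against 2.7% without. In LKO nontumour liver against DEN WT these shares were 21.4% and 6.5%. Where 0 members passed in the fit of all libraries, tumours against DEN WT gave 2 with median-ratio scaling, 4 with quantile normalization, 1 with a term for sex, 2 without the low-Ftcd WT libraries, 9 without the libraries over 30% mitochondrial TPM, 7 without the XX libraries labelled LKO and 0 to 4 leaving out each library in turn. The 1 was without DEN WT 1 and the 4 without tumour 1. LKO nontumour liver against DEN WT gave 2 and 2 without the last 2 sets, and LKO nontumour against untreated LKO liver gave 8 with a term for sex, and 1 and 6 without those sets. The differences that turned were Cd5l to 0.22 and Lyz2 to 0.71 (mitochondrial share) and Cx3cr1 to -0.26 (sex) in LKO nontumour liver against DEN WT, and Lgals3 in tumours against LKO nontumour liver, at -0.052 without tumour 3 and up to 2.08 leaving out other libraries. The cause was not tested. The replicate block called 0 members in every comparison, as did the compared groups alone; it called 10 genes in untreated LKO against WT where the compared groups alone gave 53, and gave a members' median of 0.89 in tumours against DEN WT. Same-numbered libraries correlated in their deviations at -0.63 to 0.61, and in no comparison did all 3 numbers exceed 0.1, so the numbers were not taken as pairs. The unknown depth limits what can be said of genes near 0 TPM.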
